A study of Mus musculus with 2 samples.

Results

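The insulin-like growth factor (IGF) axis was described here in mouse liver after adenovirus. It was taken as 10 listed genes: the growth factors Igf1 and Igf2, the acid-labile subunit Igfals, and the binding proteins Igfbp1 to Igfbp7. All 10 were found among the 18193 named genes of the array, on 23 of 45037 probe sets (sets of short probes for the same transcript). The genes were listed by family, not by measured values. C57BL/6J mice aged 2 months were given 1000000000 plaque-forming units of virus through the tail vein, either the vector that overexpresses PDK4 (Ad-PDK4, livers of 3 mice) or the empty vector (Ad-control, livers of 4 mice). Livers were taken on day 3, and the RNA of each group was pooled for 1 array, so both pools carry an adenovirus and neither stands for an uninfected liver. Each group is n = 1, and no test was possible.

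IGF-I in blood comes mostly from hepatocytes, which make it when growth hormone acts through its receptor, JAK2 and STAT5. In the circulation most of it is held in a complex of IGF-I, a binding protein (IGFBP-3 or IGFBP-5) and the acid-labile subunit, which keeps it in the vessels. IGFBP-1 is made by hepatocytes, is induced by FoxO1 in fasting and suppressed by insulin, and binds IGF-I in the short term. IGFBP-2 is also a hepatocyte product, whereas IGFBP-3 in rat liver comes mainly from non-parenchymal cells.

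The gene that names the virus does not check the labels. Pdk4 had a signal of 177 on the Ad-PDK4 array and 234 on the Ad-control array, a log2 difference (Ad-PDK4 minus Ad-control) of -0.39 on its single probe set, and the sources do not say whether that probe set reads the vector's transcript. The pools are named by their labels throughout, and each direction assumes that the labels are right.

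By the brightest probe set of each gene, Igfbp1 was the one member higher in the Ad-PDK4 pool. The other 9 were lower there, relative to the median difference over probe sets. Of the 8 members measured on both arrays, 0 were 2-fold apart. Such differences were rare over all 12121 measured genes, with 434 at least 2-fold higher and 108 lower, bounds included. The other 2, Igf2 and Igfbp6, have only a lower bound on their difference. Differences are given as log2 signal, Ad-PDK4 minus Ad-control, relative to the median probe set, from the brightest probe set of each gene. By that value 1 of 10 members was at least 1.5-fold higher and 2 were at least 1.5-fold lower, while among the 12121 genes measured 11.0% were as much higher and 5.58% as much lower. The median member differed by -0.28, beside 0.02 over all measured genes. In all, 46.7% of measured genes lay below 0. The share below 0 rose with brightness, to 59.8% in the 2078 brightest genes measured on both arrays, which held 5 of the members. Among those genes 2.89% of genes were 1.5-fold higher and 2.84% lower.

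A probe set was taken as measured above a floor, the median signal of each array (99.9 on the Ad-PDK4 array and 93.4 on the Ad-control array). Where a gene fell below it on a single array, its brighter signal was set against that floor and the fold is written "at least". Probe sets of the same gene disagreed by a pooled SD of 0.35 on the log2 scale over 4326 genes, which leaves out differences between mice and error shared by a whole array. The 3 members past 1.5-fold were only just past it and lay 1.72 to 1.74 of these SDs from 0. Of the 23 probe sets, 18 were above the floor on both arrays, 4 on 1 array and 1 on neither. Of the 18, 16 were below 0 and 2 above. These are not independent counts, because 6 of the 18 read Igfbp4 and 4 read Igf1. Among the 2078 brightest genes measured on both arrays, 59.8% lay below 0. For Igf1, Igfals, Igfbp4 and Igfbp7 the side of 0 also depends on the scaling, as given below.

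**Figure D1:**
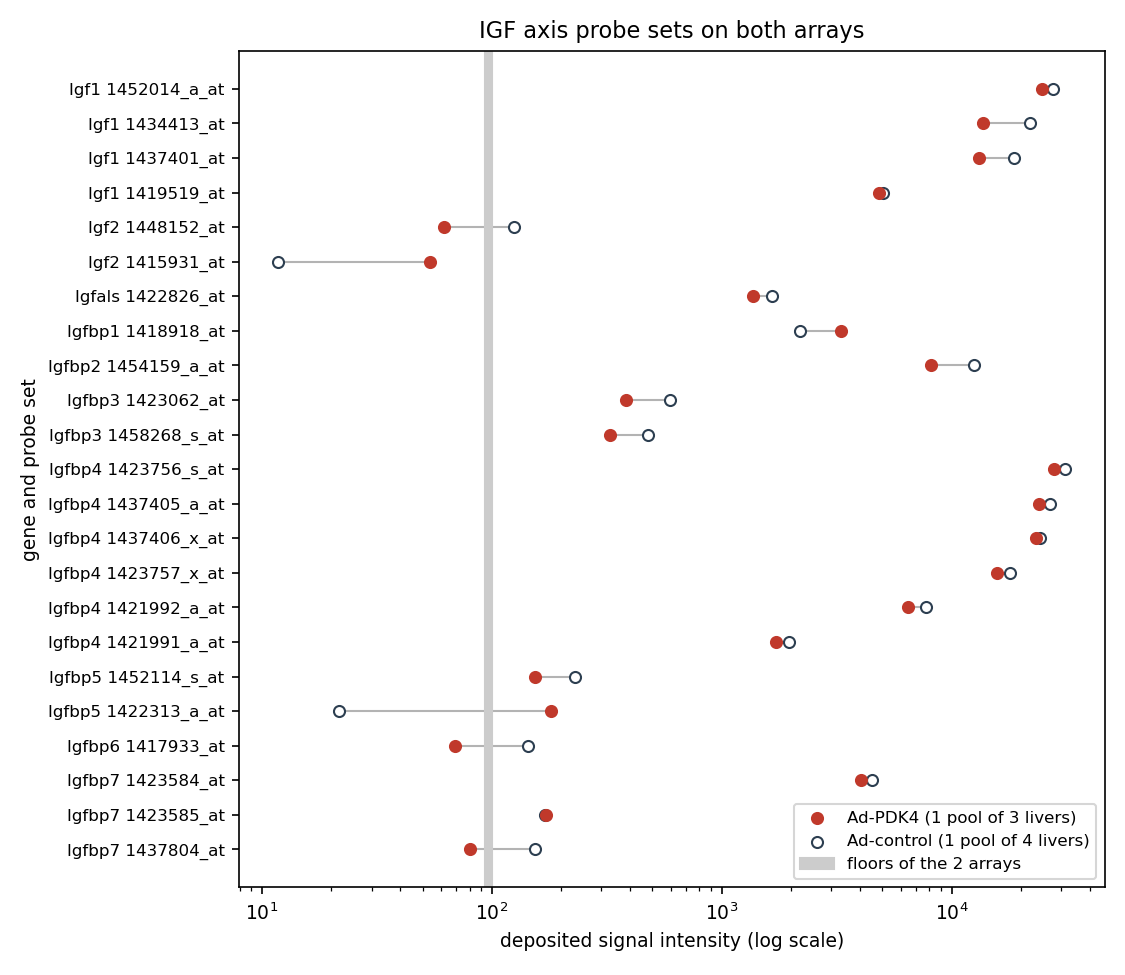
Deposited signal intensity (log scale) of the 23 probe sets of the 10 genes, filled points for the Ad-PDK4 array and open points for the Ad-control array; the grey band lies between both floors. Igfbp1 has its filled point to the right (3294 on the Ad-PDK4 array against 2185 on the Ad-control array), and Igf1, Igfbp2, Igfbp3 and Igfbp4 have theirs to the left on every probe set.

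The sequences just before the transcription start of the 3 members past 1.5-fold are shown, because Igfbp1 is the textbook case of a liver gene with an insulin response element. They are from RefSeq (GRCm38.p6), 250 bases up to the start, 5′ to 3′ on the gene's strand: Igfbp1 at chr11:7197537-7197786 (+), Igfbp2 at chr1:72824230-72824479 (+) and Igfbp3 at chr11:7213924-7214173 (-). Capitals mark the core of that element, CAAAACA.
Igfbp1: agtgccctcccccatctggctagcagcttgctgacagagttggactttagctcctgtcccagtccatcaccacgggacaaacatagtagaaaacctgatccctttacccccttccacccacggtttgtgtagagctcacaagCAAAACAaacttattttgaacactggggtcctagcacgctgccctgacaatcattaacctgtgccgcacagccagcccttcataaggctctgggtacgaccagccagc
Igfbp2: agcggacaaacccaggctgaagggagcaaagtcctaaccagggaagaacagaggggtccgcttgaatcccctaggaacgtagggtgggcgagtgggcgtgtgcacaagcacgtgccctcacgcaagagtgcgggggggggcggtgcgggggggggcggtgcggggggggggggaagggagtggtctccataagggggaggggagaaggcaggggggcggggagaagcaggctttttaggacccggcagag
Igfbp3: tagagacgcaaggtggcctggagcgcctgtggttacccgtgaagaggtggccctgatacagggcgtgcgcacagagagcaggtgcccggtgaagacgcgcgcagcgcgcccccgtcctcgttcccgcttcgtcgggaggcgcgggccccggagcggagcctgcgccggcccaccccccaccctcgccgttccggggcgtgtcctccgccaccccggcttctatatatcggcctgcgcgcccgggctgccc

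Both strands were searched for CAAAACA, for the FoxO core GTAAACA and for the spaced palindrome TTCNNNGAA that STAT factors can bind; no matches overlapped in the sequences shown. CAAAACA stood in the Igfbp1 window, from 108 to 102 bases before the start, and in no other of the 16 windows listed for the 10 genes; 5.56% of all 32851 windows held it. GTAAACA was found in a window of Igfals (3.17% of all windows), and TTCNNNGAA in 2 windows of Igfals (7.02%). The one nearer to a listed start, at chr17:24878163-24878191 (+), is shown with the palindrome in capitals, because the acid-labile subunit is a known growth hormone target.
Igfals: ctgccaggtgTTCCTAGAAgaggccctgg
The 3 printed windows differed in base composition, with 53.2% G and C for Igfbp1, 67.2% for Igfbp2 and 73.2% for Igfbp3. A match describes the letters only, and the arrays read no binding.

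Among the ligands, Igf1 was slightly lower in the Ad-PDK4 pool on all of its 4 probe sets, but by unequal amounts. Igf1 probe set 1452014_a_at had a signal of 24663 on the Ad-PDK4 array and 27714 on the Ad-control array, a log2 difference of -0.15. Igf1 probe set 1419519_at had 4819 on the Ad-PDK4 array and 5020 on the Ad-control array, a difference of -0.04. Both of these were well inside the disagreement of probe sets. The other 2 were not: Igf1 probe set 1434413_at had 13737 on the Ad-PDK4 array and 21929 on the Ad-control array, a difference of -0.66, and 1437401_at had 13215 on the Ad-PDK4 array and 18760 on the Ad-control array, a difference of -0.49. The size of the Igf1 difference therefore depends on the probe set, from a log2 difference of -0.04 to one of -0.66, with the brightest one in between (1.11-fold lower). Which part of the transcript each probe set reads was not analysed here. As a sign of RNA quality, the ratio of 3' to 5' signal was 5.46 on the Ad-PDK4 array and 4.88 on the Ad-control array for beta-actin. For Gapdh it was 0.806 on the Ad-PDK4 array and 0.785 on the Ad-control array. Its part in the spread of the Igf1 probe sets was not tested.

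Igf2, the fetal growth factor that is silent in the adult rodent liver, was at or near the floor. Its brighter probe set had 61.7 on the Ad-PDK4 array and 125 on the Ad-control array, at least 1.24-fold lower in the Ad-PDK4 pool. Its other probe set was under the floor on both arrays, with 54.0 on the Ad-PDK4 array and 11.8 on the Ad-control array, and pointed the other way. The direction for Igf2 is not settled.

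Igfals, the hepatocyte protein that completes the circulating complex, had a single probe set, with 1370 on the Ad-PDK4 array and 1648 on the Ad-control array. It was 1.19-fold lower in the Ad-PDK4 pool (log2 difference -0.25), within the disagreement of probe sets. Igf1, Igfals and the growth hormone receptor Ghr were each below 0 by their brightest probe sets, and a relation between them was not tested. The side of 0 depends on the scaling, since Igf1 was at 0.10 and Igfals at 0.0038 relative to the hybridization controls. Among the 2078 brightest genes measured on both arrays, which include Igf1, 59.8% lay below 0. Ghr had 26200 on the Ad-PDK4 array and 31514 on the Ad-control array, a difference of -0.25, with 3 probe sets between -0.25 and -0.16.

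Igfbp1 was 1.52-fold higher in the Ad-PDK4 pool, with a signal of 3294 on the Ad-PDK4 array and 2185 on the Ad-control array, a log2 difference of 0.61. Igfbp2 was its mirror image, 1.52-fold lower, with 8162 on the Ad-PDK4 array and 12567 on the Ad-control array, a difference of -0.61. Each was read by a single probe set, so no second probe set checks either value. The log2 differences of these 2 hepatocyte binding proteins were 1.21 apart, a 2.32-fold change of their ratio. A constant shift of either array leaves that gap as it is.

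Igfbp3, the main carrier of IGF-I in blood, was 1.53-fold lower in the Ad-PDK4 pool. Its brighter probe set had 385 on the Ad-PDK4 array and 594 on the Ad-control array (log2 difference -0.61), and its other one 326 on the Ad-PDK4 array and 480 on the Ad-control array (-0.55). The 2 Igfbp3 probe sets differed from each other by less than the pooled SD. Igfbp5, which can stand in for IGFBP-3 in the circulating complex, had 154.9 on the Ad-PDK4 array and 229.3 on the Ad-control array on its brighter probe set, a difference of -0.55 that is 1.47-fold and so just short of the threshold. Its other probe set, 1422313_a_at, had 181 on the Ad-PDK4 array and 21.7 on the Ad-control array, at least 1.96-fold higher. The Igfbp5 probe sets thus went in opposite directions, and its direction is not settled.

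Igfbp4, an inhibitory binding protein that the protease PAPP-A cleaves, had the most probe sets of the members. The 6 lay between -0.23 and -0.04, all below 0 and with an SD of 0.06. The brightest had 27986 on the Ad-PDK4 array and 31283 on the Ad-control array, 1.11-fold lower in the Ad-PDK4 pool. Several of these probe sets may read overlapping parts of the same transcript, so they are not independent.

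Igfbp6, which prefers IGF-II, had 69.5 on the Ad-PDK4 array and 144.3 on the Ad-control array and was at least 1.43-fold lower in the Ad-PDK4 pool. Igfbp7, a low-affinity IGF binder secreted by endothelial and mesenchymal cells, had 4039 on the Ad-PDK4 array and 4509 on the Ad-control array, a difference of -0.14. Its second probe set had 172.4 on the Ad-PDK4 array and 170.0 on the Ad-control array, a difference of 0.03. Its last one had 80.3 on the Ad-PDK4 array and 154.9 on the Ad-control array, at least 1.53-fold lower. The brightest Igfbp7 probe set was within the disagreement of probe sets, and the dim ones did not share a direction.

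**Figure D2:**
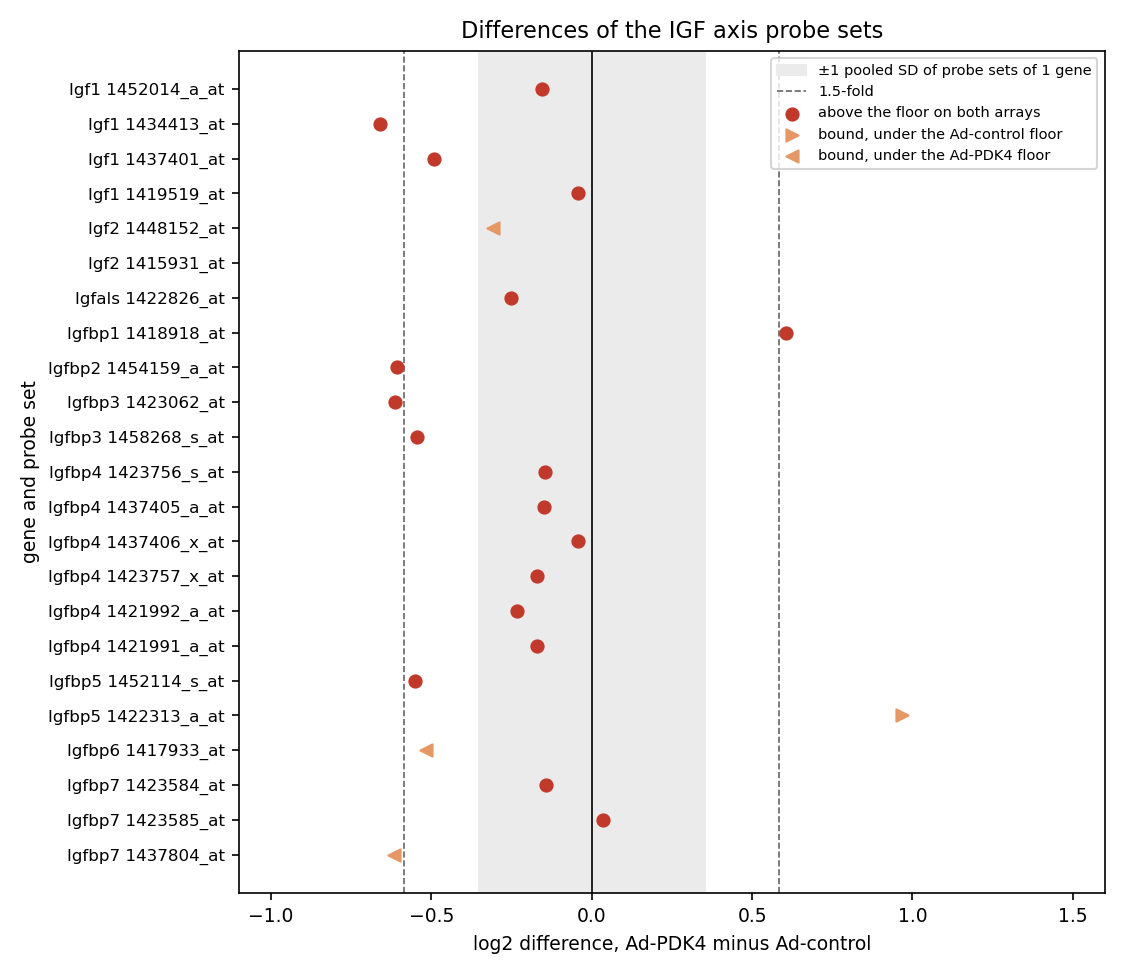
Log2 difference (Ad-PDK4 minus Ad-control) of each probe set; circles were above the floor on both arrays, triangles are bounds and point away from 0, the grey band is 1 pooled SD of probe sets on either side of 0 and dashed lines mark 1.5-fold. The single Igfbp1 circle stands at 0.61, the 6 Igfbp4 circles lie within the band, and the 4 Igf1 circles spread from -0.66 to -0.04; Igf2 probe set 1415931_at has no point because it was under both floors.

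Of the binding protein genes, 4 of 7 lie in neighbouring pairs. No protein-coding gene stood between Igfbp1 and Igfbp3 on chromosome 11 or between Igfbp2 and Igfbp5 on chromosome 1 in the RefSeq annotation (GRCm38.p6). Each pair lies on opposite strands. Igfbp1 and Igfbp3 differed in direction, with log2 differences 1.22 apart. Igfbp2 and Igfbp5 were 0.06 apart by their brightest probe sets, but the other Igfbp5 probe set went the other way (at least 1.96-fold higher).

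Among the 8 members measured on both arrays, the direction of 4 depends on what the arrays are scaled to. These are Igf1, Igfals, Igfbp4 and Igfbp7. Both arrays carry transcripts added in the laboratory, and these were dimmer on the Ad-PDK4 array, with a median log2 difference of -0.26 for 18 hybridization control probe sets and -0.54 for 24 poly-A control probe sets. The amounts added were not stated. Relative to the hybridization controls, Igfbp1 was higher by 0.86 and Igfbp2 and Igfbp3 were at -0.35 and -0.36, whereas Igf1 (0.10), Igfbp4 (0.11) and Igfbp7 (0.11) were above 0 and Igfals was at 0.0038. Relative to the poly-A controls Igfbp1 was at 1.15, Igfbp2 at -0.07, Igfbp3 at -0.07 and Igfbp5 at -0.0088. Igf2 and Igfbp6 were at 0 there, because a bound was not allowed to cross 0. Their bounds could therefore not change side under any scaling. Igfbp1 was above 0 under each of the scalings tried, and Igfbp2 and Igfbp3 below 0. Under the hybridization controls the median of all measured genes was 0.28, and under the poly-A controls 0.56.

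**Figure D3:**
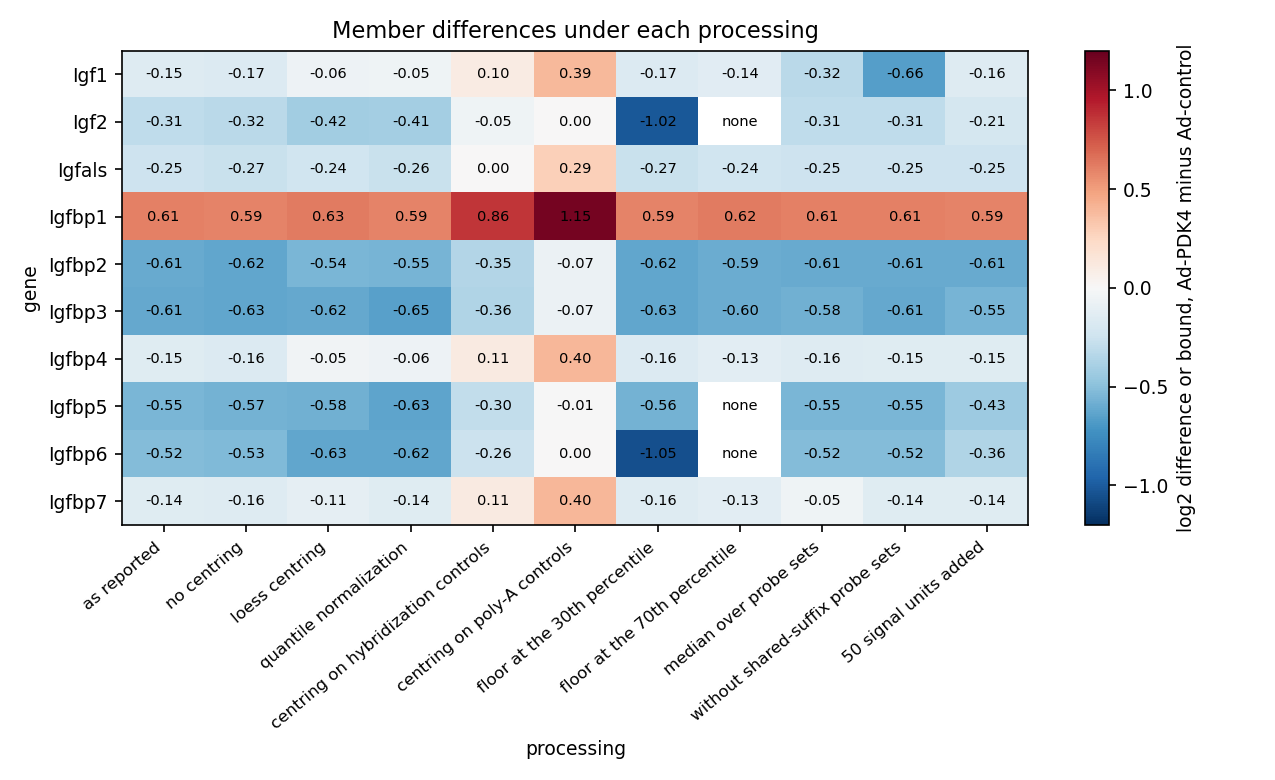
Log2 difference or bound (Ad-PDK4 minus Ad-control) of each gene (rows) under each processing (columns), in colour and as a number; "none" marks a gene with both signals below the floor there. The Igfbp1 row stays between 0.59 and 1.15, the Igfbp2 row runs from -0.62 to -0.07, and Igf1 runs from -0.66 to 0.39.

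Most receptors and substrates were within 1.5-fold by their brightest probe sets. Of 19 listed genes matched, 15 were measured, 1 was at least 1.5-fold higher and 0 were lower, with a median of 0.03. The count of higher genes was 4 relative to the hybridization controls and 7 relative to the poly-A controls. Over all 12121 measured genes, 2832 were as much higher relative to the hybridization controls and 5803 relative to the poly-A controls. Both counts lie near those shares of all genes. Grb10, an adaptor that restrains insulin and IGF receptor signalling, was 2.02-fold higher in the Ad-PDK4 pool, but at low signal (241.7 on the Ad-PDK4 array and 120.9 on the Ad-control array) and on 1 of its 3 probe sets, the others being under both floors. Grb2, the adaptor that leads to Ras, differed by 0.52 (0.24 on its other probe set). Irs1, a docking protein of both receptors, was lowest at -0.41, followed by Pik3r1, the regulatory subunit of PI 3-kinase, at -0.40 with probe sets from -0.59 to 0.60. The 3 receptors that were measured, named for their role, were within 1.5-fold, and Insrr was under both floors. Igf1r, which adult hepatocytes hardly express, differed by 0.19 (200.9 on the Ad-PDK4 array and 177.4 on the Ad-control array), Insr by -0.23 and Igf2r by -0.27, with 0.31 on its other probe set.

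In growth hormone signalling Cish, Stat5a and Bcl6 had larger differences than any of the 8 members measured on both arrays had by its brightest probe set. Of 17 matched genes 16 were measured, with a median of -0.05, and at least 1.5-fold apart were 2 on the higher and 2 on the lower side. Cish, a STAT5 target that dampens cytokine receptors, was 2.90-fold lower in the Ad-PDK4 pool on its single probe set. Its signal was 403.5 on the Ad-PDK4 array and 1183 on the Ad-control array. Cux2, a repressor that is higher in female than in male mouse liver, was at least 1.55-fold lower on a dim probe set. Stat5a was 1.97-fold higher, with 542.6 on the Ad-PDK4 array and 278.4 on the Ad-control array, and its other probe set was under both floors. Stat5b, named for its role beside Stat5a, differed by 0.09, with 744 on the Ad-PDK4 array and 707 on the Ad-control array. Its other probe set gave 0.52. Bcl6, a repressor that competes with STAT5 for its sites, was 1.83-fold higher (1349 on the Ad-PDK4 array and 743 on the Ad-control array), and its other probe set gave a log2 difference of 1.33. Jak2 differed by -0.26. Socs2, named for its role as a STAT5 target like Cish, differed by -0.24, with 3 probe sets from -0.76 to -0.15.

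Genes under fasting, FoxO or stress control like Igfbp1 had no common direction. The 19 measured genes had a median of -0.07, and 0 of them were 1.5-fold apart in either direction. That 0 depends on the processing, since Ppargc1a lies at the threshold: without centring it was at -0.59, and 1 gene was then 1.5-fold lower. Fgf21, a fasting hormone, was the highest at 0.58 (326.9 on the Ad-PDK4 array and 221.4 on the Ad-control array), and G6pc, glucose-6-phosphatase, followed at 0.50 (9823 on the Ad-PDK4 array and 7034 on the Ad-control array). Pck1, a gluconeogenic enzyme with a comparable insulin response element, differed by -0.52, with 22322 on the Ad-PDK4 array and 32383 on the Ad-control array, and by -0.53 on its other measured probe set. The coactivator Ppargc1a was lowest at -0.58, with 3 probe sets from -0.97 to -0.27.

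Proteases that release IGFs from binding proteins were mostly under the floor: of 19 matched genes 10 were below it on both arrays, Pappa, Pappa2 and the stanniocalcin Stc1 among them. The 9 measured had a median of -0.06, with 3 of them at least 1.5-fold higher and 0 lower. Over all measured genes 11.0% were as much higher. Among the 2078 dimmest genes measured on both arrays, which include these 3, 17.5% were as much higher and 8.47% lower. Htra3, a secreted serine protease, was 2.10-fold higher, with 198.6 on the Ad-PDK4 array and 95.6 on the Ad-control array. Stc2, an inhibitor of the pappalysins, was 1.72-fold higher (0.15 in log2 on its other measured probe set) and the IGFBP protease Htra1 1.52-fold higher (-0.23 on its other probe set). All 3 had Ad-control signals close to the floor, and with it at the 70th percentile 0 were 1.5-fold higher. Htra2 (-0.25) and Adam9 (-0.19) were the lowest.

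Both pools were bulk liver, so fewer cells of a type and less RNA per cell cannot be told apart. All 12 hepatocyte markers found were measured and within 1.5-fold (median -0.12), from Asgr1 (-0.37) to Alb (0.08), and their summed signal was 704092 on the Ad-PDK4 array and 762025 on the Ad-control array. Of 16 sinusoidal endothelial markers, all measured, 1 was at least 1.5-fold higher (Pecam1, 0.71) and 1 lower (Cdh5, -0.68), with a median of -0.21 and summed signals of 19783 on the Ad-PDK4 array and 22977 on the Ad-control array. Stellate cell markers had the same median, -0.21 over 17 genes, between Pdgfra (-0.88) and Des (0.72), and summed signals of 27426 on the Ad-PDK4 array and 32246 on the Ad-control array. Among 11 measured Kupffer cell markers Vsig4 (-1.19) and Clec4f (-1.13) were lower, 0 were 1.5-fold higher, the highest was Cd68 (0.37), Timd4 was under both floors, and the signals summed to 10218 on the Ad-PDK4 array and 10987 on the Ad-control array. The medians of these lists, hepatocytes included, lay below 0, as did Igfbp3 and Igfbp7 by their brightest probe sets. That side of 0 depends on the scaling, since the hybridization controls had a median of -0.26, lower than each of these medians. Relative to those controls Igfbp7 was at 0.11 and Igfbp3 at -0.36. The Kupffer cell median was -0.06, with 6 genes below 0 and 5 above. The part of these cell types in the Igfbp3 and Igfbp7 values was not tested.

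Transcripts of other organs also differed between the pools. All 11 measured pancreatic acinar markers were higher in the Ad-PDK4 pool, from Cela1 (2.47) to Reg2 (3.68), with signals summing to 86950 on the Ad-PDK4 array and 10818 on the Ad-control array, and Ptf1a was under both floors. Of 11 skeletal muscle markers 8 were at least 1.5-fold lower, between Tnnt3 (-1.44) and Myh4 (-0.22), with sums of 3263 on the Ad-PDK4 array and 5813 on the Ad-control array. Bile duct markers were hardly detected: Epcam differed by -0.52, Krt19 was at least 1.22-fold lower, and Krt7, Sox9, Cftr and Muc1 were under both floors. The part of these tissues in the values of the dim members Igfbp5 and Igfbp6 was not tested.

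**Figure D4:**
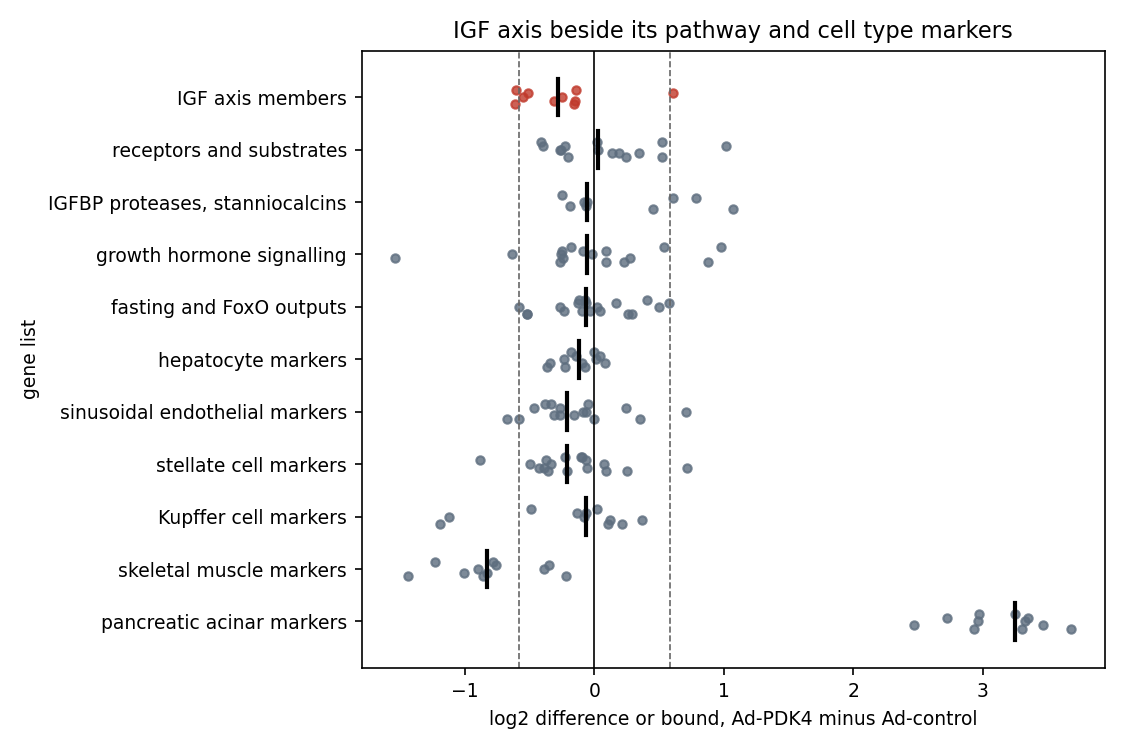
Log2 difference or bound (Ad-PDK4 minus Ad-control) of each measured gene of the axis (red) and of its pathway and cell type lists (grey); black bars are list medians and dashed lines 1.5-fold. The axis median is -0.28, hepatocyte, endothelial and stellate lists lie at -0.12, -0.21 and -0.21, and the acinar list stands apart at 3.25.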

How the data were processed

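Per the labels, RNA of 3 (Ad-PDK4) and 4 (Ad-control) livers was pooled by group, and 10 ug per pool was labelled with biotin for an Affymetrix array. The deposited table holds 1 linear signal intensity per probe set (45101, of which 64 are controls), made by the authors with software and scaling not given in the sources used here.

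Probe sets with a single gene symbol in the platform annotation were named, with symbols updated through RefSeq. Signals were put on the log2 scale and differences centred on their median over the 20151 probe sets above the 50th percentile of both arrays (a shift of -0.01). The brightest probe set stood for a gene. With 1 array per group there are no p-values, and the number of arrays limits the precision. Promoter windows are from RefSeq. Calculations used Python 3.11.15, numpy 2.4.6, pandas 2.3.3 and statsmodels 0.14.6 (for loess), and were tested on simulated data.

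Other floors, centrings, probe set choices, an added 50 signal units and a 2-fold threshold were tried as alternatives. The members and gene lists were chosen with earlier results of these data known. Every member was named, and from each pathway list the 2 highest, the 2 lowest and each gene past 1.5-fold; cell type lists are named by their highest, lowest and undetected genes.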

Additional observations from a re-analysis of the deposited data

How the results depend on the processing

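Of 97 recalculated member values, 85 stayed within the pooled probe set SD of the reported one, and no member past 1.5-fold changed direction. The count of members at least 1.5-fold higher was 1 under each alternative except a 2-fold threshold, where it was 0. At 1.5-fold the count over genes measured ran from 540 of 8223 with the 70th percentile floor to 5803 of 12121 under the poly-A controls. The count at least 1.5-fold lower, 2 as reported, was 4 with a floor set at the 30th percentile and 3 with quantile normalization. It was 3 without probe sets whose suffix marks shared sequence, 1 with the median over probe sets and 1 with 50 signal units added. It was 0 with either set of spiked controls as the reference or with the 2-fold threshold. The count over all measured genes moved as well. That count was 676 of 12121 as reported, 1707 of 15618 with the 30th percentile floor and 839 of 12119 with quantile normalization. It was 673 of 11684 without the shared-suffix probe sets, 584 of 12121 with the median and 458 of 12150 with 50 units added. Relative to the hybridization controls it was 225 of 12121, relative to the poly-A controls 58, and at 2-fold 108. Igfbp2 was short of 1.5-fold under loess (-0.54) and quantile normalization (-0.55), and the 2 counted under loess were Igfbp3 and Igfbp6. The median of the members, -0.28 as reported, was 0.15 relative to the poly-A controls. Members below 0 numbered 9 as reported, 5 relative to the hybridization controls and 3 relative to the poly-A controls. Without the shared-suffix probe sets, Igf1 was read by another probe set and differed by -0.66. The bounds of Igf2 and Igfbp6 follow the floor, and were -1.02 and -1.05 with it at the 30th percentile. Igf2, Igfbp5 and Igfbp6 had no value with it at the 70th. In the fasting and FoxO list, 0 genes were 1.5-fold lower as reported, and 1 without centring or with loess. There were 2 with quantile normalization or the floor at the 30th percentile. Of its 19 measured genes 3 were higher relative to the hybridization controls, where 2832 of all 12121 genes were. Relative to the poly-A controls 6 were higher, where 5803 of all 12121 genes were. Protease genes 1.5-fold higher, 3 as reported, ran from 0 with the floor at the 70th percentile to 6 with it at the 30th. Over all measured genes those floors gave 540 of 8223 and 2714 of 15618. Signal near the floor limits Igf2, Igfbp5, Igfbp6 and the proteases. No paired analysis was possible because each group is 1 array of 1 pool.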

Other observations

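Some transcripts near the axis lay outside its lists of ligands, carriers and signalling genes. Ins2, an insulin gene that neighbours Igf2 in the imprinted cluster, had a signal of 155.7 on the Ad-PDK4 array and 16.3 on the Ad-control array and was at least 1.68-fold higher in the Ad-PDK4 pool, where the acinar transcripts were also higher. The other islet markers found (Gcg, Sst, Ppy, Iapp, Pdx1 and Chga) were under both floors. Among genes related to the binding proteins or to IGF2 mRNA, 6 were measured, 2 were at least 1.5-fold higher (Htra1 and Htra3, given above) and 0 were lower. Igf2bp3, an RNA-binding protein named for its binding of IGF2 mRNA, had 501.2 on the Ad-PDK4 array and 670 on the Ad-control array, a log2 difference of -0.40. Vtn, the gene of vitronectin, a plasma protein that binds IGF-II and IGFBP-5, had 40699 on the Ad-PDK4 array and 50747 on the Ad-control array, a difference of -0.30, with -0.29 on its other probe set. Fat cell markers ranged from Lpl (-0.05) to the lipid droplet gene Cidec, at least 2.56-fold higher, with 5 genes measured, a median of 0.12, and Lep under both floors.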
